A study of Mus musculus with 4 samples.

Results

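The genes described here encode the enzymes and small proteins with which a cell holds its thiols reduced and removes peroxides, superoxide and reactive electrophiles. They were chosen by name: every probe set whose single platform symbol began with Gst, Mgst, Gpx, Gclc, Gclm, Prdx, Txn or Hmox, or was Gsr, Gss, Sod1, Sod2, Sod3, Cat, Nqo1, Mt1 or Mt2. This gave 52 probe sets of 40 genes, out of 13057 probe sets and 6137 singly named genes on the arrays. The rule used names and no measured value, but it was chosen with earlier results of these data known. The cells were NIH3T3, an established line of mouse fibroblasts, stably changed so that in both conditions they carry a wild-type PKR transgene behind a promoter that tetracycline shuts off. In the withdrawn cultures PKR was switched on by leaving out tetracycline for 5 h. The other cultures kept 1 µg/ml tetracycline in medium with 5% serum, and no serum content is stated for the withdrawn ones. PKR, the product of Eif2ak2, is a kinase that double-stranded RNA activates and that slows translation by phosphorylating eIF2 alpha. The labels do not say whether the line is a single clone, and tetracycline itself differs between the conditions together with PKR.

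Total RNA of each condition was read on 1 array of each of 2 types with different probe sets, so nothing is replicated, no p-value is given, and every difference describes these 4 arrays, whose number limits the precision. A probe set was compared when both intensities exceeded the control floor, the 95th percentile of 39 bacterial and yeast control probe sets (281.5 on the first type, 340.4 on the type marked MB in the sample titles). This held for 3555 of 6523 probe sets on the first type and 2738 of 6534 on the MB type. Changes are on the log2 scale, withdrawn divided by tetracycline. Beside single changes stands the neighbour spread, a robust SD over the 200 compared probe sets closest in level, which mixes probe noise with real differences and is no replicate error. Intensities of different probe sets are not comparable with each other. In RNA from whole cultures, fewer cells expressing a gene and less RNA per cell cannot be told apart. The only Eif2ak2 probe set read 663.6 after withdrawal and 643.3 with tetracycline, and the labels do not give the transgene's species, so it does not check them. Of 15 fibroblast marker probe sets 14 were compared, against 8 of 22 for markers of leukocytes, hepatocytes, epithelium and erythroid cells. Of these 14 fibroblast probe sets, 10 were lower after withdrawal, with a median log2 change of -0.28, and of the 8 compared probe sets of the other cell types 6 were lower, with a median of -0.30. The intensity summed over the fibroblast probe sets was 49160.9 after withdrawal and 60744.4 with tetracycline on the first type, and 119346 and 143681 on the MB type. Most fibroblast probe sets thus moved the same way as most antioxidant probe sets, and their part in the results below was not tested.

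Glutathione is made from its amino acids in a pair of enzyme steps, then used by transferases, which couple it to electrophiles, and by peroxidases, which spend it on peroxides. Thioredoxin and the peroxiredoxins form a parallel system, recharged by thioredoxin reductase with NADPH. Many of these genes are switched on by the transcription factor NRF2 (Nfe2l2) through antioxidant response elements, and the metallothioneins by the zinc sensor MTF1 through metal response elements. To let the proximal promoters be read beside the values, the 150 bases upstream of the annotated start are printed for 7 genes, taken from RefSeq on GRCm38.p6: Gstp1 and Gstm2 for the transferases that were lower, Prdx1 and Txnrd1 for the thioredoxin branch, Mt1 and Mt2 for the metallothioneins, and Sod2 for a gene that was higher. Sequences run 5′ to 3′ along the gene's strand. Capitals mark matches, on either strand, to TGACNNNGC (the core of the antioxidant response element), TGANTCA (the AP-1 site, which can lie inside it) and TGCACNC or TGCGCNC (the metal response element).
Gstp1 (chr19:4037913-4038062, minus strand): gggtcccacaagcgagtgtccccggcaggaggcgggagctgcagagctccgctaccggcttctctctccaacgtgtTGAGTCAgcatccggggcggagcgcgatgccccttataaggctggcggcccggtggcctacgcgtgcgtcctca
Gstm2 (chr3:107986421-107986570, minus strand): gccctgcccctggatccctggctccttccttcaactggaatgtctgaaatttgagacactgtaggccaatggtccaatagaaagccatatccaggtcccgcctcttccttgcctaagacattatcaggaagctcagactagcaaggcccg
Prdx1 (chr4:116685449-116685598, plus strand): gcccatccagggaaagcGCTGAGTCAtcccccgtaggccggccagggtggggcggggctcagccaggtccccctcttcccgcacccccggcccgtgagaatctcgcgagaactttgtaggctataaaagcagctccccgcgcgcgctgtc
Txnrd1 (chr10:82859056-82859205, plus strand): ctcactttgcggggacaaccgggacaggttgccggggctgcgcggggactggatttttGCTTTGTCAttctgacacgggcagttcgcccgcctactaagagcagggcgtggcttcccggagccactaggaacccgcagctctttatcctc
Mt2 (chr8:94172468-94172617, plus strand): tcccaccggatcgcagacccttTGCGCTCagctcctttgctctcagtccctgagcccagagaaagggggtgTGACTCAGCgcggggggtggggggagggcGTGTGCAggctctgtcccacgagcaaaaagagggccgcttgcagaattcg
Mt1 (chr8:94178939-94179088, plus strand): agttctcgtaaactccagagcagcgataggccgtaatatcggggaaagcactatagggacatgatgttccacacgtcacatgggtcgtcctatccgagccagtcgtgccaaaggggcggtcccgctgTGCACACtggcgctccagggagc
Sod2 (chr17:13007689-13007838, plus strand): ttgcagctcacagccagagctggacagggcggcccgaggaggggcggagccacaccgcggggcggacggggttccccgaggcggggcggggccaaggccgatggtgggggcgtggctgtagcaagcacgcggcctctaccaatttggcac

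Over the 250 bases upstream, TGACNNNGC occurred in 10.2% of 32851 windows in the table, TGANTCA in 6.75% and a metal response element in 21.4%. The table held 33 of the 40 genes, with 42 windows. It gave TGACNNNGC in 6 genes (Gsta3, Gstm5, Mt2, Prdx1, Sod1 and Txnrd1), TGANTCA in 5 (Gstm5, Gstp1, Mgst2, Mt2 and Prdx1) and a metal response element in 7 (Gstm1, Gstm5, Gstt1, Mt1, Mt2, Prdx4 and Txnip). Of the 42 windows of these genes, 14.3%, 11.9% and 19% held the motifs in that order. The genes without an entry were Gclc, Gsta4, Gstt2, Hmox1, Sod3, Txnl1 and Txnl4a. In Prdx1 and Mt2 an AP-1 match lay within the antioxidant response element match, starting 131 and 79 bases upstream. The Gstp1 match began 74 bases upstream and the Txnrd1 match 92. Only 1 of the 3 annotated Txnrd1 starts had it. A match is a run of letters, not a shown binding site. Genes with and without matches occurred on both sides of no change. Prdx1 and Mt2 read lower after withdrawal and Txnrd1 read higher, while Gstm2 and Sod2, neither with a match in the stretch shown, read lower and higher.

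Of the 52 probe sets, 37 (31 genes) were compared, 27 of 37 on the first type and 10 of 15 on the MB type. After withdrawal 27 of the 37 were lower to some extent and 10 higher. On the first type 19 of 27 were lower, where 51.2% of all compared probe sets were, and on the MB type 8 of 10, where 48.8% were. Higher were 8 of 27 on the first type (background 48.8%) and 2 of 10 on the MB type (51.1%). The median log2 change was -0.13 on the first type against -0.01 for all probe sets there, and -0.32 on the MB type against 0.0092. These shifts were small next to the changes of single probe sets, which ran from -1.25 to 1.78. On the first type 1 probe set was lower by at least 2-fold (background 1.29%) and 1 higher (1.88%). On the MB type 0 of 10 passed 2-fold in either direction, where 0.767% of all probe sets were lower and 1.97% higher. At 1.5-fold, 5 of 27 were lower on the first type (background 6.67%) and 1 higher (8.86%). On the MB type 1 of 10 was lower (5.19%) and 1 higher (8.8%).

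**Figure D1:**
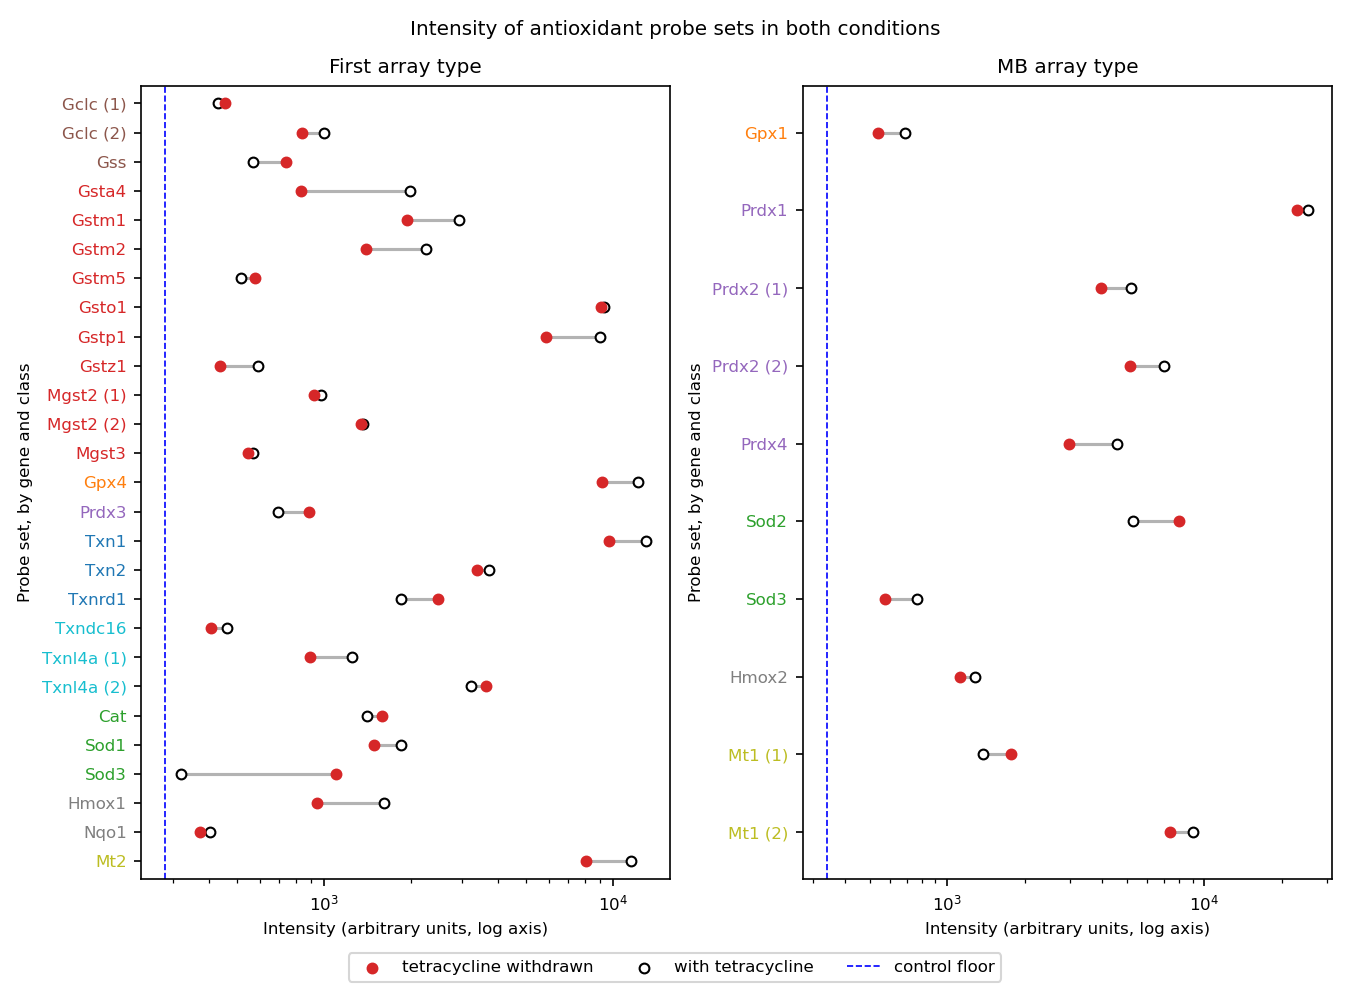
Intensity (arbitrary units, log axis) of the 37 antioxidant probe sets above the control floor, with filled points for withdrawn and open points for tetracycline cultures, 1 array each; label colours follow the class and the dashed line is the floor. The widest gaps are those of Gsta4, lower after withdrawal, and of the Sod3 probe set of the first type, higher and with its tetracycline value of 318.7 close to the floor of 281.5.

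Among the brightest compared probe sets of each array type, more were lower after withdrawal than higher. Compared probe sets were split by mean level into 4 bins of near-equal size. In the brightest bin of the first type, 57.9% of all compared probe sets were lower after withdrawal and the median was -0.06, while 7 of 8 antioxidant probe sets in it were lower, with a median of -0.42. In the brightest bin of the MB type, 63.6% of all were lower with a median of -0.09, and 5 of 6 antioxidant probe sets were lower with a median of -0.34. In the dimmest bin the antioxidant medians were -0.07 over 7 probe sets on the first type and -0.38 over 2 on the MB type. The bins were made after the values were seen.

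**Figure D2:**
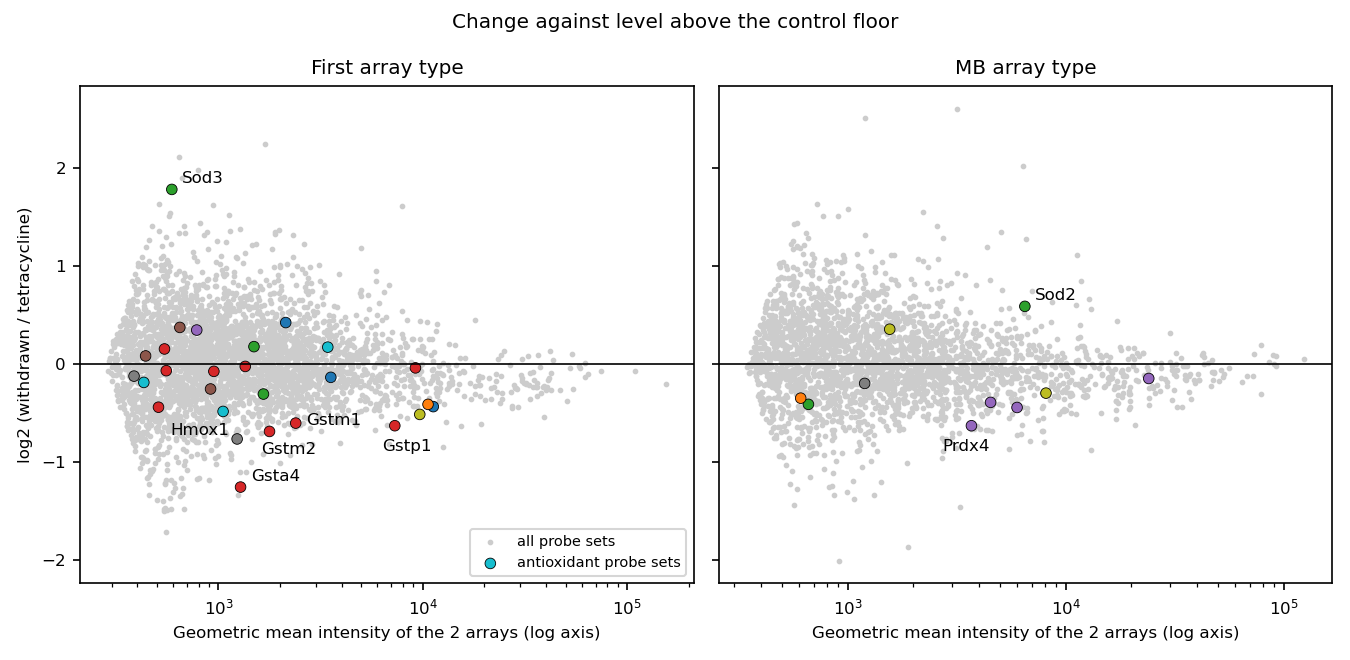
The log2 change of withdrawn over tetracycline against the geometric mean intensity (log axis) for compared probe sets, in grey, and the antioxidant ones, coloured by class as in the plot of change by class; those changed by 1.5-fold or more are named. The antioxidant points lie mostly below 0 at high intensity, with Sod2 above and, among bright first-type points, Gstp1 at -0.63.

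Of the 6 antioxidant probe sets lower by at least 1.5-fold, 4 were glutathione transferases. These enzymes couple glutathione to electrophiles, and 10 of their 17 probe sets were compared: 9 were lower after withdrawal and 1 higher, with 4 lower by at least 1.5-fold. All 10 were on the first type, where 51.2% of all compared probe sets were lower to some extent and 6.67% by 1.5-fold. The count of 9 includes Gsto1, whose change was above 0 under quantile normalization or after removal of the level trend. Gsta4, the alpha-class enzyme with a preference for the lipid peroxidation product hydroxynonenal, read 830.6 after withdrawal and 1980 with tetracycline. It was 2.38-fold lower (log2 change -1.25, neighbour spread 0.38), and no other compared transferase passed 2-fold. Gstm2, a mu-class enzyme, read 1401 after withdrawal and 2253.9 with tetracycline (-0.69, spread 0.38). Gstm1, another mu-class gene, read 1939.1 and 2940.8 (-0.60, spread 0.35). Mu-class genes are close copies of each other, so their probe sets may share target RNA and are not separate evidence. Gstp1, the pi-class enzyme, read 5866.5 after withdrawal and 9063.1 with tetracycline (-0.63, spread 0.31), on a probe set of the family kind by its _f_ name, which related sequences can share. With quantile normalization or the level trend removed its change was -0.54 or -0.55, short of 1.5-fold. Of the 37 compared antioxidant probe sets, 9 were of the family kind. In the deposited values all 9 read lower, against 27 of the 37. Besides Gstp1 they were those of Gpx4, Prdx1, Prdx2 (both), Txn1, Sod1 and Mt2 and the family one of Mt1. How often family probe sets read lower over the whole arrays was not counted. The part of these 9 in the downward lean was not tested.

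Other transferases differed little. Gstm5, also of the mu class, was the 1 higher member, with 574.3 after withdrawal and 515.7 with tetracycline (0.16), and its second probe set was below the floor on both arrays. Gsto1, the omega-class enzyme that reduces dehydroascorbate, read 9081.1 and 9321.5 (-0.04), the highest reading among the transferase probe sets with tetracycline. Gstz1, which isomerises maleylacetoacetate in tyrosine breakdown, read 436.9 after withdrawal and 592.2 with tetracycline (-0.44), a change smaller than its spread of 0.60. The membrane-bound transferases were close to no change, at -0.07 and -0.02 for the overlapping probe sets of Mgst2 and -0.07 for Mgst3. Gsta3 and Gstt1 on the MB type, and Gstm3, Gstt2 and 2 further Mgst3 probe sets on the first type, stayed below the floor on both arrays, so no fold is given for them.

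**Figure D3:**
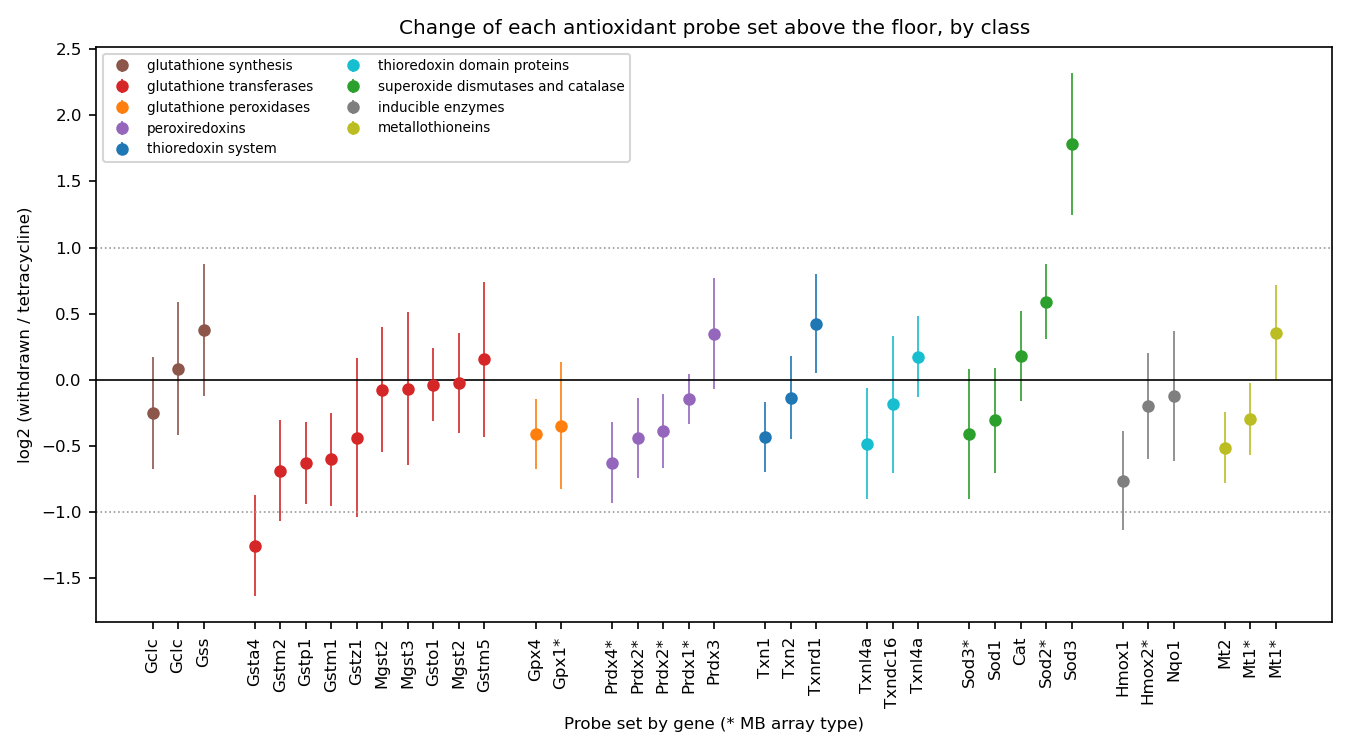
The log2 change of each compared antioxidant probe set by class, with bars of 1 neighbour spread (a robust SD over 200 probe sets of similar level, no replicate error); an asterisk marks the MB type and dotted lines a change of 2-fold. Gsta4 lies beyond the lower line and 1 Sod3 probe set beyond the upper, while the other Sod3 probe set is at -0.41.

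Genes that make glutathione did not move as a group. Gclc, the catalytic subunit of the rate-limiting ligase, had a probe set at 837.9 after withdrawal and 998.5 with tetracycline (-0.25) and another at 453.1 and 427.4 (0.08). Gss, the synthetase of the second step, read 736.7 after withdrawal and 568.1 with tetracycline (0.37, spread 0.50). All these changes were within the neighbour spread. Gclm and Gsr were not analysed here.

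Both compared glutathione peroxidases were lower. Gpx4, which reduces lipid hydroperoxides within membranes and so guards against ferroptosis, read 9200.2 after withdrawal and 12222.4 with tetracycline (-0.41, spread 0.26). Gpx1, the cytosolic enzyme, read 539.9 and 686.5 (-0.35, spread 0.48). The secreted enzyme Gpx3, on both array types, and the epididymal Gpx5 were below the floor on both arrays.

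Among peroxiredoxins 4 of 5 probe sets were lower, 1 of which, Prdx1, had a change of 0 with quantile normalization. All 4 were on the MB type, where 48.8% of all compared probe sets were lower. Prdx4, the peroxiredoxin of the endoplasmic reticulum, read 2973.5 after withdrawal and 4593.6 with tetracycline (-0.63, spread 0.31). It was 1.54-fold lower, but short of 1.5-fold with quantile normalization or the level trend removed (both -0.58). Prdx2, a cytosolic enzyme, had 2 probe sets of similar change, with 3952.2 against 5177.7 (-0.39) and 5134.6 against 6973 (-0.44), withdrawn against tetracycline. Both are of the family kind, which related sequences can share. Prdx1, likewise cytosolic and the probe set with the highest reading of the class, read 22860.5 after withdrawal and 25293.9 with tetracycline (-0.15, spread 0.19). The mitochondrial Prdx3 went the other way, with 883.1 and 693.8 (0.35, spread 0.42).

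The thioredoxin system was mixed. Txn1, the cytosolic thioredoxin, read 9684.7 after withdrawal and 13072.1 with tetracycline (-0.43, spread 0.26). Txnrd1, the selenoprotein that recharges it, was higher, at 2471.4 and 1841.5 (0.42, spread 0.37). The mitochondrial thioredoxin Txn2 read 3385 and 3715.1 (-0.13). The thioredoxin inhibitor Txnip and the reductase Txnrd3 were below the floor on both arrays. Of the further proteins with a thioredoxin domain, the spliceosomal Txnl4a had probe sets in opposite directions. They read 891.3 after withdrawal and 1244.8 with tetracycline (-0.48), and 3639.2 and 3225.9 (0.17). Txndc16 read 404.2 and 459.8 (-0.19). Txnl1 was above the floor only with tetracycline, at 289.3 against 141.8 after withdrawal, which makes it at least 1.03-fold lower.

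Superoxide dismutases and catalase held both members that were higher by at least 1.5-fold. Sod2, the manganese enzyme of mitochondria and a known NF-kB target, read 7970.8 after withdrawal and 5296.5 with tetracycline. It was 1.5-fold higher (0.59, spread 0.29), and just under 1.5-fold when the median change of the array pair was set to 0. Sod3, the extracellular enzyme, read 1096.2 and 318.7 on the first type (1.78) but 573.2 and 761.4 on the MB type (-0.41). The 2 readings of this gene therefore point in opposite directions, 2.19 apart on the log2 scale. The low first-type value, 318.7, and both MB values were below the brightest control probe set of their array type (447.5 and 1212.8). They were above the brightest unspiked control (313.7 and 452.1). Sod1, the cytosolic copper and zinc enzyme, read 1493.5 after withdrawal and 1844.6 with tetracycline (-0.30), and Cat, the peroxisomal catalase, 1586.9 and 1401.8 (0.18). Both were within their spreads of 0.40 and 0.34.

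The heme oxygenases and the quinone reductase had 5 probe sets, 3 of which were compared. Hmox1, the inducible heme oxygenase, read 947.4 after withdrawal and 1607.3 with tetracycline on 1 probe set, 1.70-fold lower (-0.76, spread 0.38), while its other probe set was below the floor on both arrays. Hmox2, the constitutive form, read 1117.8 and 1280.6 (-0.20). Nqo1, the quinone reductase, had a compared probe set at 370.2 after withdrawal and 402.8 with tetracycline (-0.12). Its other probe set read 40.8 and 383.8, so it was below the floor after withdrawal and is at least 1.36-fold lower. Both Nqo1 probe sets on the tetracycline array lay close above the floor, below the brightest control probe set of that type (447.5). They were above the brightest unspiked control (313.7).

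The metallothioneins, which bind zinc and copper and scavenge radicals, were read by 3 probe sets. Mt2 was lower, at 8087.8 after withdrawal and 11535.8 with tetracycline (-0.51, spread 0.27). For Mt1 the family probe set read 7333.1 and 8997.7 (-0.30) and the one without that mark in its name 1763.9 and 1377.7 (0.36). Mt1 and Mt2 are close copies, and family probe sets can read both.

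How far probe sets of a gene disagree can be read from the arrays themselves. Over all genes, 479 pairs of compared probe sets of a gene on the same array type had a median difference in log2 change of 0.28, and 90% of pairs differed by less than 0.79. In 40.1% of pairs the signs were opposite. The 5 such pairs of antioxidant genes differed by a median of 0.34, with opposite signs in 3 (Gclc, Mt1 and Txnl4a) and like signs in Mgst2 and Prdx2. Between array types, 207 pairs over all genes had a median difference of 0.27, against 2.19 for Sod3, the only antioxidant gene with a pair. The lower readings of Gstm1, Gstm2, Gstp1, Hmox1 and Prdx4, at -0.60 to -0.76, each rest on 1 compared probe set. So does the larger change of Gsta4. That 0.79 describes differences between 2 probe sets of a gene, pooled over all levels. It therefore sets no limit for the change of a single probe set.

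**Figure D4:**
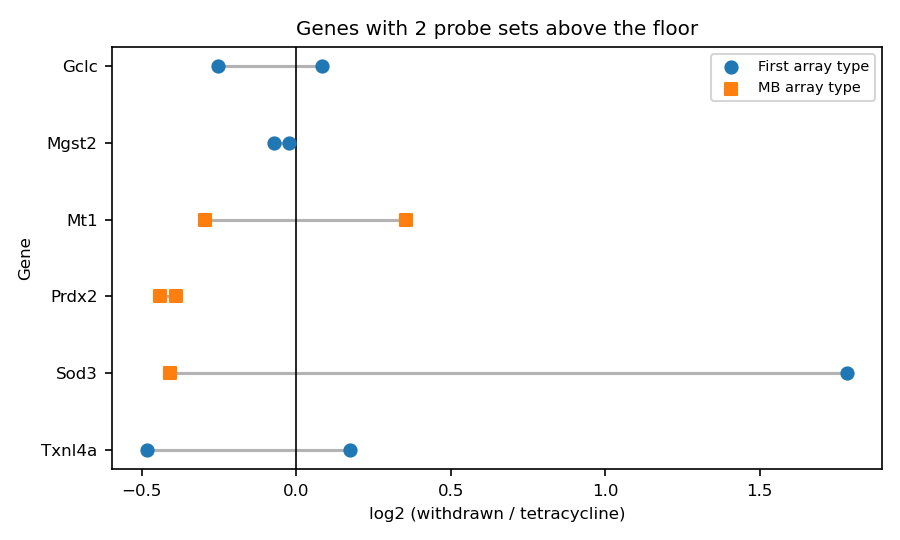
The log2 change of withdrawn over tetracycline for the 6 antioxidant genes with 2 compared probe sets, circles for the first and squares for the MB array type, joined by a line. Mgst2 and Prdx2 agree to within 0.06, Gclc, Mt1 and Txnl4a straddle 0, and Sod3 spans 2.19.

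Beyond the effector enzymes, 77 regulators and partner genes of the pathway were listed, of which 47 had probe sets and 40 genes (44 probe sets) were compared. This list too was drawn up with earlier results of these data known, so its counts are descriptive only. The regulators read mostly higher after withdrawal, in 9 of 11 probe sets, with a median of 0.42 and 3 higher by at least 1.5-fold. The background was 48.8% higher to some extent and 8.86% by 1.5-fold for the first type, and 51.1% and 8.8% for the MB type. Nfe2l2, encoding NRF2, read 2962.2 after withdrawal and 2082.1 with tetracycline (0.51, spread 0.34). The related factor Nfe2l1 read 5098.4 and 2923.2 (0.80, spread 0.31), and the small Maf partner Mafk 871.6 and 537.5 (0.70, spread 0.49). Bach1, the repressor that competes with NRF2 on these elements, read 895.9 after withdrawal and 383.1 with tetracycline on 1 probe set (1.23, spread 0.53). The other read 416.8 and 397.5 (0.07, spread 0.54). All of these Bach1 values but 895.9 were below the brightest first-type control (447.5). Sqstm1, an NRF2 target that also binds its inhibitor KEAP1, read 20916.5 and 15335.6 (0.45, spread 0.20). The regulators listed also held Atf4 (0.41), Foxo3 (0.42) and Hif1a (0.29), all higher. Mafg (-0.21) and Park7 (-0.28) were lower. The 11 probe sets count Bach1 on both of its probe sets and leave out Mtf1, which had no compared probe set.

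Partners outside the regulators split by role. All 7 compared NADPH-supplying enzymes were lower after withdrawal, 3 of them by at least 1.5-fold. The transketolase Tkt read 873 after withdrawal and 1872.3 with tetracycline (-1.10, spread 0.38). The cytosolic isocitrate dehydrogenase Idh1 read 395.6 and 799.2 (-1.01, spread 0.59), the lower value below the brightest first-type control (447.5). The malic enzyme Me1 read 604.5 and 1045.9 (-0.79, spread 0.38). On the first type, which read all 7, 51.2% of all compared probe sets were lower to some extent and 6.67% by 1.5-fold. The changes of Pgls (-0.24), Pgd (-0.22), Idh2 (-0.08) and Taldo1 (-0.08) were within their neighbour spreads. Slc3a2, the heavy chain of the cystine transporter, was higher on both its MB probe sets, at 6044.4 and 10817.1 after withdrawal and 3328.2 and 6973.9 with tetracycline (0.86 and 0.63). Ggct, which degrades gamma-glutamyl dipeptides, was lower at 287.3 and 457 (-0.67), close to the floor after withdrawal. Of 12 redox repair probe sets, 9 were lower and 3 higher, none by 1.5-fold. Over all compared probe sets of the MB type, which read some of them, 48.8% were lower. The sulfiredoxin Srxn1 (-0.40) and the glutaredoxin Glrx (-0.48) were lower and the selenoprotein Selenow (0.40) higher. The ferritin subunits Fth1 (-0.22 and -0.04) and Ftl1 (-0.15) and all 6 detoxification probe sets (-0.07 to -0.21) were within 1.5-fold. Near-zero changes of Fth1, Akr1a1, Adh5, Msrb1, Pdia3 and Selenof changed sign with quantile normalization, the median ratio or the level trend removed, which brings the split of 29 lower and 15 higher to 25 lower and 18 higher with quantile normalization.

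**Figure D5:**
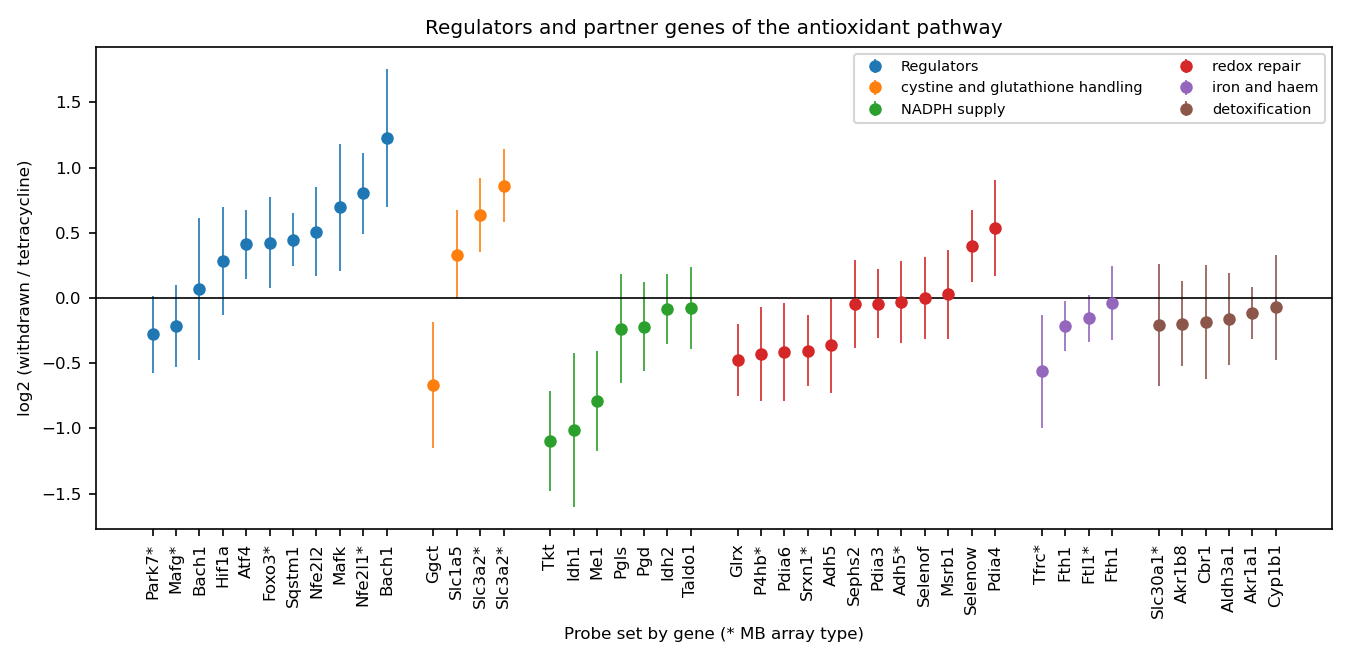
The log2 change of each compared probe set of regulators and partner genes, by role, with bars of 1 neighbour spread and an asterisk for the MB type. Regulators lie mostly above 0 with a median of 0.42, and the 7 NADPH-supplying enzymes lie below 0, from -1.10 to -0.08.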

How the data were processed

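The members and gene lists were chosen with earlier results of these data known. The deposited tables, as the authors deposited them, give each probe set 1 linear intensity on every array. Per the file headers they carry no detection calls, and how the scans became tables is not given in the sources used here. The deposited intensity was used without further scaling: without controls, the 2% trimmed mean was 1000.4 after withdrawal and 999.9 with tetracycline on the first type, and 997 on both MB arrays. Genes came from the platform annotation; all 52 probe sets matched RefSeq by Entrez identifier. A probe set naming Prdx1 with a further gene was left out. No count of reads exists, and the number of arrays limits the precision. Values are given for the highest reading of each class, for changes of at least 1.5-fold, for genes with several compared probe sets and for bounds; further members are named to complete a class. A bound is the bright value over the floor. No test was possible with 1 array per condition and type. Alternatives were 4 scalings (loess with span 0.4, quantile, trimmed mean and median ratio), 2 other floors, 1 value per gene, and limits of 1.5-fold and 3-fold. The calculation was tested on simulated arrays, with changes planted only in probe sets far above the floor. The simulation therefore does not speak for dimmer members such as Gsta4, Hmox1 and Sod3. Python 3.11.15, numpy 2.4.6, pandas 2.3.3, statsmodels 0.14.6 and matplotlib 3.10.9 were used.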

Additional observations from a re-analysis of the deposited data

How the results depend on the processing

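No paired analysis was possible because each condition has 1 array of each type, so leaving out an array was not possible either. The median change of the compared members kept its sign and stayed within 0.1 of its value on both array types under the 4 scalings, both other floors and both ways of taking 1 value per gene. The members past 2-fold were the same under the 4 scalings. With the floor at the 25th percentile of all probe sets, 2 members of the first type were lower by 2-fold, Txnl1 joining Gsta4. With a 1.5-fold limit, 5 were lower on the first type, and 1 was higher and 1 lower on the MB type. With a 3-fold limit 0 were lower on the first type, and the 1 higher was Sod3. At 1.5-fold over both types, 6 lower members became 4 with quantile normalization or loess, without Gstp1 and Prdx4, and 2 higher ones became 1 with the median ratio, without Sod2. Single changes shifted by at most 0.15, and of the 37 only Gsto1 changed sign, to 0.04 with quantile normalization and 0.06 with loess. Prdx1 came to 0 with quantile normalization and -0.04 with loess. The 27 lower members became 25 and 26 under these. Signal near the control floor limits what can be said of dim members, 15 of 52 of which were not compared.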

Other observations

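Several listed partner genes had a value above the control floor on 1 array only, and all of these were brighter with tetracycline. How often each direction occurred over all probe sets was not counted. Among the cell type markers, probe sets of Krt14, Hba-a1 and Alb were above the floor only after withdrawal. The aldehyde dehydrogenase Aldh1a1, which makes retinoic acid, read 9.4 after withdrawal and 316 with tetracycline on the first type. Fech, the ferrochelatase that completes heme, read 195.5 and 388.5, and the epoxide hydrolase Ephx2 173.8 and 296.3. On the MB type 1 probe set of Mtf1, the metal-responsive factor, read 192.7 after withdrawal and 477.8 with tetracycline, while its other probe set was below the floor on both arrays. All of these tetracycline values lay below the brightest control probe set of their array type (447.5 first, 1212.8 MB). Those controls include kinds usually spiked in. The brightest unspiked controls read 313.7 and 452.1, below the tetracycline values of Aldh1a1, Fech and Mtf1 but not that of Ephx2.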
